A study of Rattus norvegicus with 8 samples.

Results

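The mitochondrial carriers of the Slc25 family were examined in whole kidneys of the HSRA rat, in which one kidney can be missing from birth (unilateral renal agenesis). The line was derived from a heterogeneous stock. HSRA-S animals carried a congenital solitary kidney, and HSRA-C animals had both kidneys and served as the control. All animals of both groups were HSRA rats of 4 weeks of age, with no treatment named in the labels, and each group held 4 independent samples on 1 Affymetrix Rat Gene 1.1 ST array each. The control thus shares the HSRA background with the solitary-kidney group, and the labels used here name no sex, litter or kidney side. Carriers were taken as every gene whose symbol begins with Slc25a and that had a probe set annotated to that symbol alone, with the brightest probe set kept per gene. This gave 43 carriers of 17245 genes, and 42 of them passed the filter on dim genes and were tested.

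Slc25 proteins sit, with few exceptions, in the inner membrane of the mitochondrion, which is otherwise closed to charged metabolites. Each is built of a repeated module of membrane helices around a central binding site that opens to one side of the membrane at a time, so most of them exchange one solute for another. In the kidney, proximal tubule and thick ascending limb cells are packed with mitochondria, and carriers supply them with ADP, phosphate, acylcarnitines and amino acids and let ATP, citrate and other products out. The family also serves the synthesis of haem, iron-sulphur clusters, nucleotides and glutathione pools inside the organelle.

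The stretches upstream of 6 carriers are shown. They were picked with their values in view, with Slc25a5 beside its close relative Slc25a4, and leave out Slc25a2, Slc25a1, Slc25a13 and Slc25a44. Each is the run of 250 bases before the transcription start in RefSeq (build GRCr8), 5′ to 3′ on the gene's strand, and capitals mark matches to the searched motifs on either strand. The ETS motif CCGGAAG, bound by GABPA and other ETS factors, the cyclic AMP response element TGACGTCA, the YY1 motif AAGATGGC, the NRF1 core GCATGCGC and the estrogen-related receptor element AAGGTCA were searched, and no 2 matches overlapped in the stretches shown. These windows lay at chr1:212596601-212596850 (plus strand) for Slc25a45, chr8:118243323-118243572 (plus strand) for Slc25a20, chr16:52805271-52805520 (plus strand) for Slc25a4, chrX:120897366-120897615 (plus strand) for Slc25a5, chr7:27506628-27506877 (minus strand) for Slc25a3 and chr3:36116582-36116831 (minus strand) for Slc25a25.
Slc25a45: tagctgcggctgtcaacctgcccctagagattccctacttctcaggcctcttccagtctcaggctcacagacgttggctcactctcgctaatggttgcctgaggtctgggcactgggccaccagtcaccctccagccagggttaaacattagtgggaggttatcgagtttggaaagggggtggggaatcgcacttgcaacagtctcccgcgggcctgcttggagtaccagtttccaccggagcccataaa
Slc25a20: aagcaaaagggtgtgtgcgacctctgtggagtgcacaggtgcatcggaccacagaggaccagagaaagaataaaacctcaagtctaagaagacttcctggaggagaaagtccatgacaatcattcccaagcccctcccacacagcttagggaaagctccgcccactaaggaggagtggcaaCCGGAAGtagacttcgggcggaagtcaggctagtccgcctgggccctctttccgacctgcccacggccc
Slc25a4: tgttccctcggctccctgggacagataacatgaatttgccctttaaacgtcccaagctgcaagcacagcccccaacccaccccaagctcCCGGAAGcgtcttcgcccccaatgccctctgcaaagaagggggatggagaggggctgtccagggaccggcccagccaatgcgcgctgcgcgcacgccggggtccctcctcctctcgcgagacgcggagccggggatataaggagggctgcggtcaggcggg
Slc25a5: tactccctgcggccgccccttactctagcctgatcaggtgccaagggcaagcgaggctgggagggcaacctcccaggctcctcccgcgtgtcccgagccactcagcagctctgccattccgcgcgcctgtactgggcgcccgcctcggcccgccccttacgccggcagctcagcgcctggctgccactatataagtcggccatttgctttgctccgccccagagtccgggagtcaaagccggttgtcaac
Slc25a3: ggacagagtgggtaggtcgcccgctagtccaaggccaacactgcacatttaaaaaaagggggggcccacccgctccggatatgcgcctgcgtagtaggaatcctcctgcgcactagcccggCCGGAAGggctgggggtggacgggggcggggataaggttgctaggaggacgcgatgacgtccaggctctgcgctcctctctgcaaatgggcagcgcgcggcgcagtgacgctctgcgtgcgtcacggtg
Slc25a25: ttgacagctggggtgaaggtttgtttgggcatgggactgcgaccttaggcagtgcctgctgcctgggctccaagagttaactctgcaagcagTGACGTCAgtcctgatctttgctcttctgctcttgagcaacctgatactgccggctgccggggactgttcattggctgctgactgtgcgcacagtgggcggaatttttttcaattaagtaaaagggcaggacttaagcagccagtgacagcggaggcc

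Slc25a20, Slc25a4 and Slc25a3 each held 1 ETS match, at 69, 161 and 129 bases before the start. Slc25a25 held the cyclic AMP response element 158 bases before its start. In Slc25a45 and Slc25a5 none of these letters occurred in the window, which says nothing of the factors. Promoters of 37 carriers were matched by gene ID. Among them 6 held the ETS motif, against 7.74% of 27457 promoters, 2 held the cyclic AMP response element (1.7%), 1 the YY1 motif (1.69%), 2 the NRF1 core (2.38%) and 1 the estrogen-related receptor element (3.77%). The match is a description of sequence, and binding was not measured.

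The arrays correlated at 0.987 to 0.995 with each other, with median intensities of 30.8 to 32.3. Markers of the labelled tissue were high, with mean log2 levels of 11.16 in HSRA-S and 11.11 in HSRA-C for Lrp2 (megalin of the proximal tubule) and 11.58 and 11.65 for Umod (uromodulin of the thick ascending limb), while the liver genes Alb and Cyp2c11 were left out as dim. HSRA-C replicates 3 and 4 stood apart in some, but not all, of the collecting duct and medulla markers. Slc14a2, a urea transporter of inner medullary ducts and thin limbs, was at or above 8.86 in both and at 4.44 to 7.22 in the other samples. Aqp4, a water channel of collecting duct cells, was at 7.31 and 7.57 in them and at 5.22 to 6.79 elsewhere. Aqp2, Fxyd4 and Foxi1 were also highest in this pair. The other markers of that list, Aqp3, Scnn1b, Scnn1g, Hsd11b2, Slc4a1, Atp6v0d2 and Atp6v1g3, did not set the pair apart. The mean of 15 proximal tubule markers minus that of 12 collecting duct and medulla markers, on the log2 scale, was 2.17 and 2.14 in these samples, between 2.65 and 2.93 in 5 others and 3.58 in HSRA-S replicate 4. HSRA-S replicate 4 thus stood apart at the other end, and it held the lowest values of Slc14a2 (4.44) and Aqp4 (5.22). Of the 15 proximal tubule markers 11 were higher in HSRA-S, and of the 12 collecting duct and medulla markers 11 were lower. Of the other lists, against 55.5% of all tested genes that were higher, 5 of 5 stroma markers, 4 of 4 podocyte and 3 of 3 endothelium markers were lower, 4 of 4 leukocyte markers were higher (mean 6.50 to 7.07 in HSRA-S and 6.31 to 6.67 in HSRA-C), 4 of 9 thick ascending limb and distal tubule markers were higher, and 2 of 4 muscle markers were higher. Differences are therefore given with all 8 samples and, for most carriers and partner genes with the larger differences, also without HSRA-C replicates 3 and 4. For some they are also given with this marker difference as a covariate. The part of these markers in the carrier differences was not tested beyond those values. In bulk kidney, fewer cells of a type and less RNA per cell cannot be told apart.

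Carriers were on the whole a little higher in the solitary kidney, but none passed the test. Of the 42 tested carriers 29 were higher in HSRA-S and 13 lower, or 69.0% higher against 55.5% of all 13796 tested genes. Their median log2 difference (HSRA-S minus HSRA-C) was 0.058, against 0.015 over all tested genes. With limma and Benjamini-Hochberg adjustment over all genes, 0 carriers had an adjusted p under 0.05, as did 0 genes in all (0%), and the smallest adjusted p of a carrier was 0.331. At an unadjusted p under 0.05 there were 6 higher carriers, or 14.3% against 7.36% of all genes, and 1 lower carrier, or 2.38% against 4.69%. The higher ones were Slc25a45, Slc25a20, Slc25a1, Slc25a4, Slc25a13 and Slc25a44, and the lower one was Slc25a2. Values of the 2 groups did not overlap for Slc25a45 and Slc25a3 on the higher side (4.76% against 4.12% of all genes) and for Slc25a2 on the lower side (2.38% against 2.17%), so the shares without overlap lay near the background.

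The counts and the median were smaller without the pair of control samples named above. Without HSRA-C replicates 3 and 4 the median difference of the carriers was 0.015, against 0.014 over all genes, and 24 of 42 were higher (57.1% against 55.2%). In that comparison 1 carrier, Slc25a20, was higher at an unadjusted p under 0.05 (2.38% against 2.68% of all genes) and 1, Slc25a2, was lower (2.38% against 2.17%). Leaving out HSRA-C replicate 4 alone left 2 higher carriers at that p, and leaving out HSRA-C replicate 3 alone left 3. Leaving out HSRA-S replicate 4, the sample at the other end of the marker difference, kept 6 of the 7 carriers at that p, all but Slc25a13. With the marker difference as a covariate 27 of 42 were higher (64.3% against 58.4%), 3 of them at an unadjusted p under 0.05 (7.14% against 5.68%), namely Slc25a20, Slc25a45 and Slc25a29, and 0 were lower at that p (2.85% of all genes). HSRA-C replicate 4 held the lowest value of 13 carriers and HSRA-C replicate 3 that of 7, while no other sample was lowest for more than 6. Below their own mean over the 8 samples lay 33 carriers in HSRA-C replicate 4, 30 in replicate 3, 23 in replicate 1 and 17 in replicate 2, against 15 to 17 in each HSRA-S sample.

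**Figure D1:**
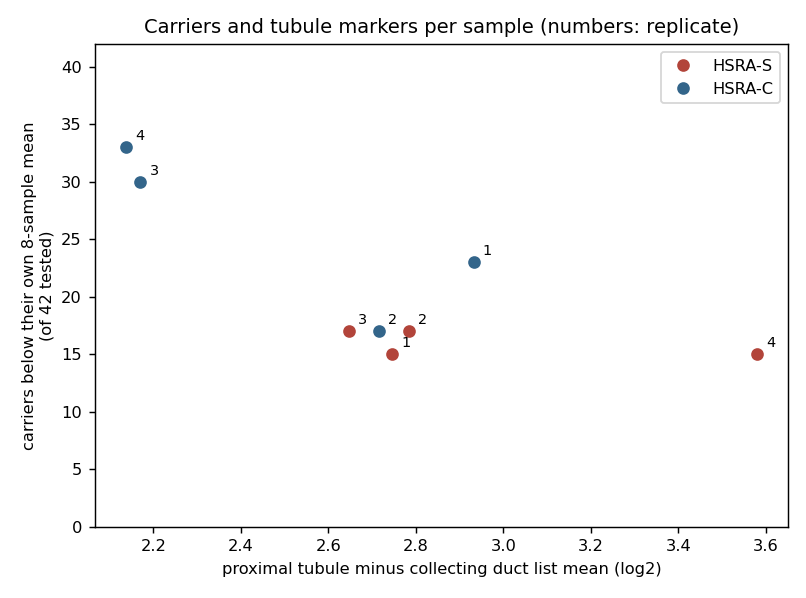
Number of the 42 tested carriers that lay below their own mean over the 8 samples (y axis) against the log2 mean of the proximal tubule markers minus that of the collecting duct and medulla markers (x axis), 1 point per sample, numbered by replicate, red for HSRA-S and blue for HSRA-C. HSRA-C replicates 3 and 4 sit at the lower end of the marker axis with 30 and 33 carriers below their mean, and the other 6 samples hold 15 to 23.

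Carriers of adenine nucleotides and phosphate supply ATP synthase. Slc25a4, the adenine nucleotide translocase ANT1, exports ATP for ADP and is the main form of heart and muscle. Its log2 levels were 9.21, 9.26, 9.08 and 9.10 in HSRA-S replicates 1 to 4 and 8.93, 9.11, 8.98 and 8.86 in HSRA-C replicates 1 to 4. The groups overlapped through HSRA-C replicate 2, which lay above 2 solitary kidneys. The difference was 0.19 (SE 0.072, a 1.14-fold higher level; limma adjusted p = 0.361), and 0.14 without HSRA-C replicates 3 and 4. Slc25a5 or ANT2, the form of dividing and many other cells, was at 11.63, 11.67, 11.66 and 11.67 in HSRA-S and at 11.61, 11.78, 11.67 and 11.64 in HSRA-C. Its difference was -0.018 with a 95% interval from -0.15 to 0.11, so these groups overlapped throughout and a fold as large as that of Slc25a4 lay outside the interval. Whether the 2 differences differ from each other was not tested.

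Slc25a3, the phosphate carrier, brings in the phosphate that ATP synthase uses. In HSRA-S it was at 10.65, 10.59, 10.57 and 10.57, and in HSRA-C at 10.49, 10.50, 10.49 and 10.46. Every solitary kidney thus lay above every control, by a small step: the difference was 0.11 (SE 0.053, 1.08-fold; limma adjusted p = 0.425), and 0.10 without HSRA-C replicates 3 and 4. Its within-group SD of 0.028 was the smallest among the tested carriers. The fit pools the spread over genes, and therefore gave it an unadjusted p of 0.058 although its groups did not overlap.

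The ATP-Mg/phosphate carriers adjust the total adenine nucleotide pool of the matrix and respond to calcium. Slc25a25 (SCaMC-2) had the widest difference of the family, at 0.50 (SE 0.24, 1.41-fold; limma adjusted p = 0.436), and also the largest within-group SD, 0.427. It was at 5.87, 5.27, 5.20 and 6.44 in HSRA-S and at 5.24, 5.40, 5.13 and 5.02 in HSRA-C. HSRA-S replicates 4 and 1 were high, while replicates 2 and 3 lay within the control range. Its difference was 0.38 without HSRA-C replicates 3 and 4 and 0.15 with the covariate, on which HSRA-S replicate 4 was the highest sample. Slc25a24 (SCaMC-1) leaned to the other side, with 5.99, 5.88, 6.13 and 6.06 in HSRA-S and 6.08, 6.13, 6.31 and 6.22 in HSRA-C. The groups overlapped between 6.08 and 6.13, and the difference was -0.17 (SE 0.077, limma adjusted p = 0.416) or -0.089 without HSRA-C replicates 3 and 4. A second probe set of Slc25a24 stood at -0.26. Slc25a23 (SCaMC-3) was at 0.028 and Slc25a41, a calcium-independent relative, at 0.0089, both within their spread and at -0.0075 and -0.029 without HSRA-C replicates 3 and 4, and a second probe set of Slc25a23 was at 0.13. Slc25a31, the adenine nucleotide translocase of the male germ line, was dim at 3.89, 3.58, 3.90 and 3.76 in HSRA-S and 3.94, 3.82, 3.71 and 3.91 in HSRA-C, with a difference of -0.067. Slc25a54 was the carrier left out as dim, at 2.51 in HSRA-S and 2.47 in HSRA-C, below the limit of 3.63.

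Carriers of di- and tricarboxylates link the tricarboxylic acid cycle to the cytosol. Slc25a1, the citrate carrier, exports citrate for fatty acid and sterol synthesis. Its levels were 7.19, 7.19, 7.14 and 7.19 in HSRA-S and 6.99, 7.15, 6.97 and 6.89 in HSRA-C. The solitary kidneys were tightly grouped (SD 0.0216) and only HSRA-C replicate 2 reached their range. The difference was 0.18 (SE 0.066, 1.13-fold; limma adjusted p = 0.361), and 0.11 without HSRA-C replicates 3 and 4. Slc25a10, the dicarboxylate carrier, was at 0.13 (SE 0.080) and Slc25a11, the 2-oxoglutarate/malate carrier of the malate-aspartate shuttle, at 0.083 (SE 0.073). Both differences shrank without HSRA-C replicates 3 and 4, to 0.060 and -0.0047. Slc25a21, the 2-oxodicarboxylate carrier, had the same mean of 5.59 in both groups.

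Slc25a20, the carnitine/acylcarnitine carrier, brings long-chain fatty acids bound to carnitine into the matrix, where they are burnt. It was at 7.42, 7.39, 7.07 and 7.39 in HSRA-S and at 6.98, 6.98, 7.13 and 7.07 in HSRA-C. HSRA-S replicates 1, 2 and 4 lay above all controls, and replicate 3 lay among them. The difference was 0.28 (SE 0.085, 1.21-fold; limma adjusted p = 0.332). It was 0.34 (SE 0.11) without HSRA-C replicates 3 and 4 and 0.28 with the covariate, so it was at least as large without those controls as with them. Slc25a20 was the only carrier higher at an unadjusted p under 0.05 with all samples, without that pair and with the covariate.

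Amino acid carriers held the largest share of the carriers with small p. Of 9 tested, 6 were higher and 3 lower, 3 and 1 of them at an unadjusted p under 0.05 (7.36% and 4.69% of all genes), with a median difference of 0.10. Without HSRA-C replicates 3 and 4 the counts at that p were 0 and 1 (2.68% and 2.17% of all genes). With the covariate they were 2 and 0 (5.68% and 2.85% of all genes). Slc25a45, placed by sequence near the carriers of basic amino acids, had the smallest p of all carriers. It was at 8.07, 8.04, 7.82 and 7.66 in HSRA-S and at 7.62, 7.63, 7.36 and 7.25 in HSRA-C. The groups did not overlap, although HSRA-S replicate 4 and HSRA-C replicate 2 were only a small step apart. The difference was 0.44 (95% interval 0.17 to 0.70, 1.35-fold; limma adjusted p = 0.331). It was 0.28 without HSRA-C replicates 3 and 4, at an unadjusted p of 0.056, and 0.42 with the covariate.

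Slc25a44, the carrier of branched-chain amino acids, was at 6.94, 6.98, 6.92 and 6.65 in HSRA-S and at 6.80, 6.77, 6.42 and 6.30 in HSRA-C. HSRA-S replicate 4 lay below HSRA-C replicates 1 and 2, and the low end was held by HSRA-C replicates 3 and 4. Its difference of 0.30 (SE 0.12, 1.23-fold; limma adjusted p = 0.390) became 0.086 without that pair. Slc25a13 (citrin), the aspartate/glutamate carrier of liver and kidney that feeds the malate-aspartate shuttle and the urea cycle, was at 7.96, 7.90, 7.89 and 8.20 in HSRA-S. In HSRA-C it was at 7.86, 7.91, 7.63 and 7.63. HSRA-S replicate 4 was the highest, and HSRA-C replicates 1 and 2 fell in or beside the solitary range. The difference of 0.23 (SE 0.095, 1.17-fold; limma adjusted p = 0.388) became 0.10 without HSRA-C replicates 3 and 4 and 0.078 with the covariate. A second, dim probe set of Slc25a13 had the same sign, at 0.21.

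The differences of the ornithine carriers had opposite signs, and whether they differ from each other was not tested. Slc25a15 (ORC1), which brings ornithine into the matrix for citrulline synthesis, was 0.36 higher in HSRA-S (SE 0.19), at 8.08 to 8.66 against 7.66 to 8.48 in HSRA-C. Its 2 lowest samples were HSRA-C replicates 3 and 4. Without them the difference was 0.049, and with the covariate it was 0.072. Slc25a2 (ORC2), a relative that accepts a wider range of basic amino acids, was at 5.44, 5.55, 5.60 and 5.50 in HSRA-S and at 5.67, 5.73, 5.62 and 5.79 in HSRA-C. Every solitary kidney lay below every control, with HSRA-S replicate 3 and HSRA-C replicate 3 nearly touching. The difference was -0.18 (SE 0.063, a 1.14-fold lower level; limma adjusted p = 0.352). It was also -0.18 without HSRA-C replicates 3 and 4, and -0.17 with the covariate. Of the glutamate carriers, Slc25a22 was at 0.042 and Slc25a18 at -0.0088. Slc25a29, a carrier of basic amino acids, was at 0.10 (SE 0.10), and at 0.23 with the covariate. Slc25a38, the glycine carrier needed for haem synthesis, was at 6.81, 6.82, 6.72 and 6.89 in HSRA-S and 6.87, 6.88, 6.80 and 6.76 in HSRA-C, a difference of -0.018.

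**Figure D2:**
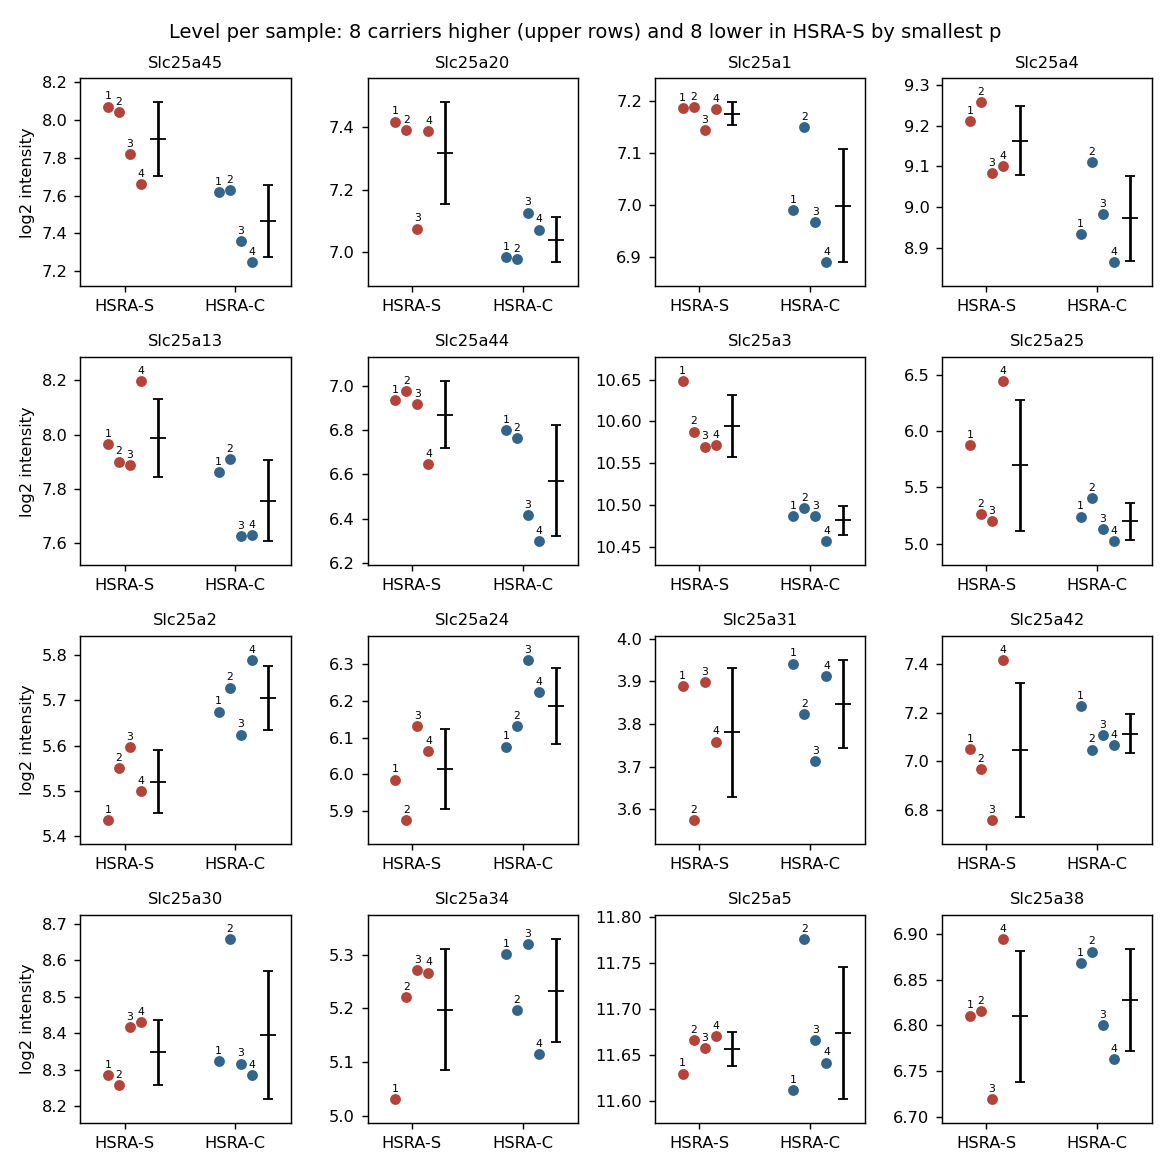
Log2 intensity in each sample (y axis, scaled for each gene) for the 8 carriers of smallest p with a higher level in HSRA-S (upper 2 rows) and the 8 with a lower level (lower 2 rows). Points are samples numbered by replicate, red for HSRA-S and blue for HSRA-C, and bars show the mean and SD of 4 samples. Slc25a45 and Slc25a3 lie wholly above the controls and Slc25a2 wholly below, while the other 13 overlap.

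Of 7 tested carriers of cofactors and nucleotides, 5 were higher and 2 lower, 0 at an unadjusted p under 0.05, and their differences lay between -0.065 and 0.12. Slc25a33, a pyrimidine nucleotide carrier, was at 0.12 with all samples and at -0.023 without HSRA-C replicates 3 and 4, and Slc25a36, its relative, at 0.015. Slc25a32, a carrier of folate or FAD, was at 0.095, and Slc25a26, which imports S-adenosylmethionine for methylation in the matrix, at 0.064. The coenzyme A carrier Slc25a42 was at 7.05, 6.97, 6.76 and 7.42 in HSRA-S and at 7.23, 7.05, 7.11 and 7.07 in HSRA-C. HSRA-S replicates 3 and 4 spanned the whole range of the 8 samples, so that its difference of -0.065 was small beside the SD of 0.274 in HSRA-S, and it was -0.23 with the covariate. Slc25a16 (0.020) and the peroxisomal carrier Slc25a17 (-0.0021) had the smallest differences of these 7 beside Slc25a36.

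All 4 carriers of glutathione and iron were higher in HSRA-S, with 0 at an unadjusted p under 0.05 and a median difference of 0.16. Slc25a39, which imports glutathione, was at 0.19 (SE 0.10; 8.68 to 8.86 in HSRA-S and 8.33 to 8.79 in HSRA-C), and its second probe set at 0.11. Its 2 lowest samples were HSRA-C replicates 3 and 4, and the difference was 0.00092 without them. Slc25a40, its close relative, was at 0.16 (SE 0.090) and 0.099. Slc25a37 and Slc25a28, mitoferrins 1 and 2, which import iron for haem and iron-sulphur clusters, were at 0.15 (SE 0.11) and 0.070 (SE 0.10). Without HSRA-C replicates 3 and 4 they were at 0.015 and 0.033.

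Of 3 relatives of the uncoupling proteins within the family 1 was higher and 2 lower, with 0 at an unadjusted p under 0.05. Their median difference was -0.015, and -0.071 without HSRA-C replicates 3 and 4. Slc25a14 was at 0.042, Slc25a27 at -0.015, and Slc25a30 at 8.28, 8.26, 8.42 and 8.43 in HSRA-S and 8.32, 8.66, 8.32 and 8.29 in HSRA-C, where replicate 2 was the high sample (difference -0.048, and -0.14 without HSRA-C replicates 3 and 4). Among the remaining carriers Slc25a48, a carrier linked to choline, was at 0.20 (SE 0.13) and at -0.028 without HSRA-C replicates 3 and 4. Slc25a46, an outer membrane protein of mitochondrial dynamics, was at 0.11 (SE 0.071). Slc25a47, known from hepatocytes, was at 0.053, and Slc25a43 and Slc25a35, whose substrates are not settled, at 0.037 and -0.017. Slc25a34, likewise an orphan, was at 5.03, 5.22, 5.27 and 5.27 in HSRA-S and at 5.30, 5.20, 5.32 and 5.11 in HSRA-C, a difference of -0.036 within a spread that overlapped.

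**Figure D3:**
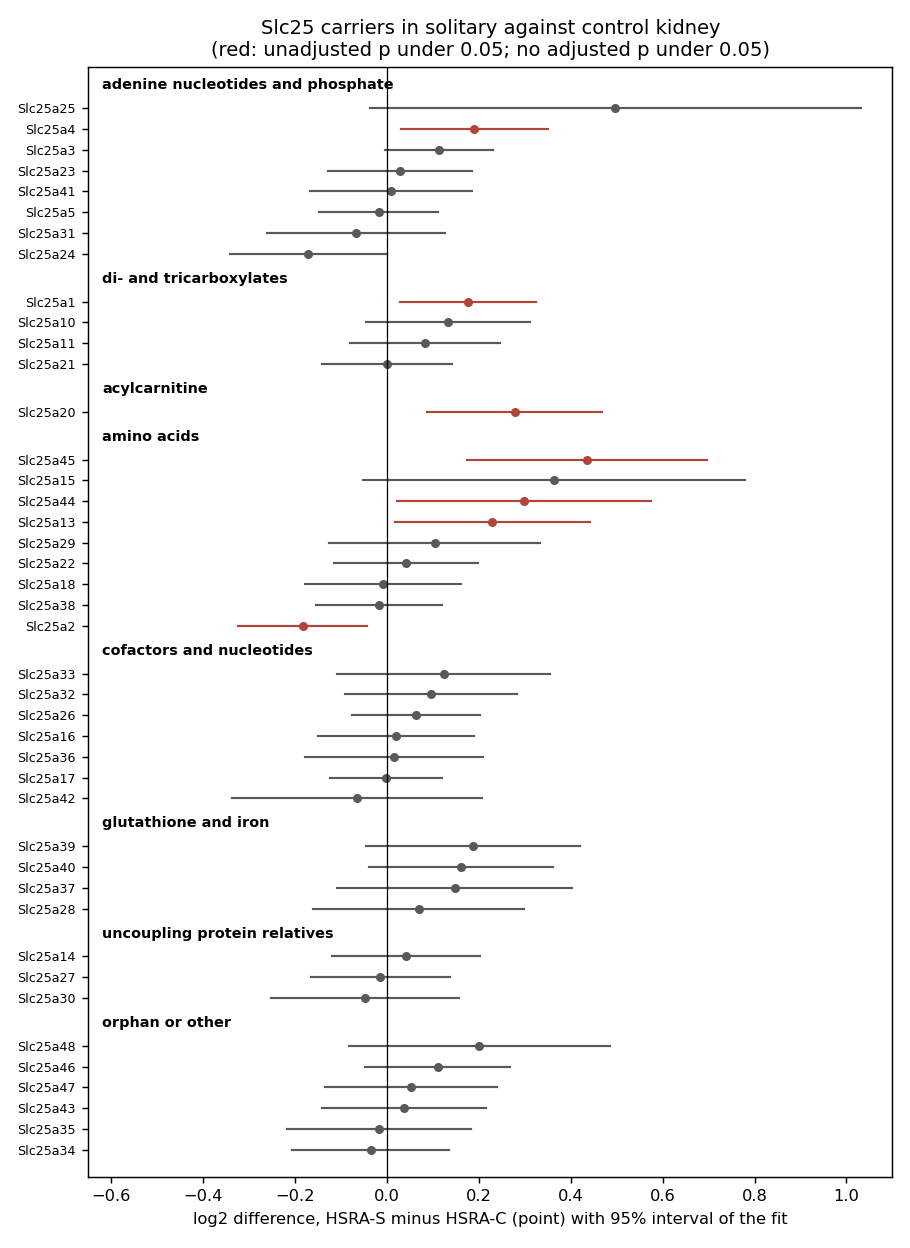
Log2 difference between HSRA-S and HSRA-C for each of the 42 tested carriers, grouped by what they carry. Points are the difference and bars its 95% interval from the limma fit of all 8 samples, and red marks an unadjusted p under 0.05. The 6 red points to the right of 0 and the 1 to the left have adjusted p-values of 0.331 to 0.390.

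For 23 of the 42 carriers the difference was smaller than 0.1 in either direction, and the 95% intervals of these 23 reached from -0.34 to 0.30. A p above the threshold does not show that such a carrier was the same in both groups. Within-group SDs ran from 0.028 for Slc25a3 to 0.427 for Slc25a25, with a median of 0.11. They were above 0.2 for 5 carriers. Among the carriers with an unadjusted p under 0.05, the difference moved by over 1.5 times without HSRA-C replicates 3 and 4 for Slc25a45, Slc25a1, Slc25a13 and Slc25a44, and by less for Slc25a20, Slc25a4 and Slc25a2.

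**Figure D4:**
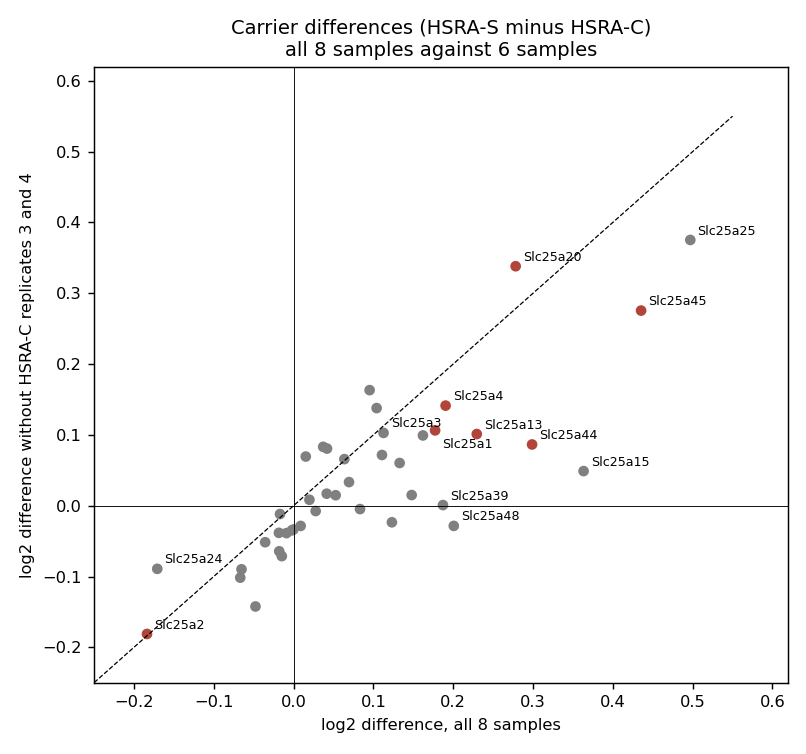
Log2 difference of each tested carrier with all 8 samples (x axis) against that without HSRA-C replicates 3 and 4 (y axis). The dashed line marks equal values and red an unadjusted p under 0.05 with all samples. Slc25a2 (-0.18 and -0.18) lies on the line and Slc25a20 (0.28 and 0.34) above it, while Slc25a15, Slc25a48 and Slc25a39 drop to 0.049, -0.028 and 0.00092.

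Genes that work beside the carriers were mostly higher in HSRA-S, and whether they differ from the carriers in this was not tested. Of 46 tested partner genes 39 were higher in HSRA-S, 17 of them at an unadjusted p under 0.05 (37.0% against 7.36% of all genes) and 0 of them past adjustment, with a median difference of 0.15. Without HSRA-C replicates 3 and 4 the counts were 33 (71.7% against 55.2% of all genes) and 3 (6.52% against 2.68%), and the median was 0.059. With the covariate they were 36 (78.3% against 58.4% of all genes) and 3 (6.52% against 5.68%), and the median was 0.11. The partner lists were chosen with earlier results of these data known. The machinery that brings carriers to the inner membrane was higher in 10 of 10 genes (55.5% of all genes), 4 at an unadjusted p under 0.05 (40% against 7.36%). Without HSRA-C replicates 3 and 4 the counts were 8 (80% against 55.2% of all genes) and 1 (10% against 2.68%). With the covariate they were again 8 and 1, against 58.4% and 5.68% of all genes. Timm10, a small chaperone of the intermembrane space, was at 0.34 (SE 0.11), the outer membrane receptor Tomm70 at 0.20 (SE 0.083), Timm13 at 0.20 and the TIM22 subunit Timm29 at 0.16. These 4 genes were at 0.23, 0.14, 0.21 and 0.11 without that pair of controls.

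Carrier relatives with other names were mixed. Mtch2, an outer membrane insertase of carrier descent, was at 0.23 (SE 0.075), and Ucp1, the uncoupling protein of brown fat, at 0.42 (SE 0.18) but near the dim limit, at 4.36 in HSRA-S and 3.93 in HSRA-C. Without HSRA-C replicates 3 and 4 Mtch2 was at 0.16 and Ucp1 at 0.59. All 4 brown fat markers, a list that holds Ucp1 and Ppargc1a too, were higher, with list means of 6.23 to 6.52 in HSRA-S and 5.93 to 6.17 in HSRA-C. Of them Cidea was at 0.56 (SE 0.092, limma adjusted p = 0.249) and the adipocyte hormone Adipoq at 0.044, and their part in the value of Ucp1 was not tested. Ucp3 was at 0.095 and also near the dim limit, at 3.90 in HSRA-S and 3.81 in HSRA-C. Mtch1 was at 0.020 (-0.10 without HSRA-C replicates 3 and 4) and Ucp2 at -0.022 (0.067). Mpc1, a subunit of the pyruvate carrier, which belongs to another family, was at 0.17 (SE 0.072; 0.078 without HSRA-C replicates 3 and 4). The outer membrane channel Vdac2 was at 0.13 (SE 0.053), with groups that did not overlap, and at 0.12 without that pair.

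Enzymes on either side of single carriers gave values to set beside them. In the carnitine shuttle, Crat was at 0.27 (SE 0.082) and Cpt2 at 0.24 (SE 0.093), beside Slc25a20 at 0.28. Without HSRA-C replicates 3 and 4 Crat was at 0.21 and Cpt2 at 0.16. With all samples Cpt1a was at -0.0036, Crot at 0.031 and Cpt1b at -0.077. In the malate-aspartate shuttle Got1 was at 0.21 (SE 0.093), Mdh1 at 0.15, Got2 at 0.068 and Mdh2 at 0.034, beside Slc25a13 at 0.23 and Slc25a11 at 0.083. Without HSRA-C replicates 3 and 4 Got1 was at 0.075, Mdh1 at 0.059, Got2 at -0.051 and Mdh2 at 0.042. In the ornithine and urea cycle list, Asl, the argininosuccinate lyase, was at 0.46 (SE 0.12) without overlap, and at 0.31 without HSRA-C replicates 3 and 4. Ass1 was at 0.17 (0.037 without that pair) and Arg2 at -0.16 (-0.29). Cps1 was at 0.21 (SE 0.14) but near the dim limit, at 4.06 in HSRA-S and 3.85 in HSRA-C. Oat, the ornithine aminotransferase, was at -0.11 with all samples and -0.69 without that pair. Otc, which uses the ornithine that Slc25a15 brings in, was left out as dim. The glycine cleavage genes Gldc (1.00, SE 0.39) and Gcsh (0.37, SE 0.12) and the serine hydroxymethyltransferase Shmt2 (0.31, SE 0.10) were at 0.35, 0.14 and 0.21 without HSRA-C replicates 3 and 4, while the glycine carrier Slc25a38 was at -0.018.

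Of the iron-sulphur and haem genes Iscu, the scaffold protein, was at 0.19 (SE 0.073), Nfs1 at 0.16 and Fech at 0.059. Without HSRA-C replicates 3 and 4 Iscu was at 0.19, Nfs1 at 0.035 and Fech at -0.015. Regulators of mitochondrial biogenesis did not share a direction. Ppara, the fatty acid receptor, was at 0.36 (SE 0.16) and at 0.15 without HSRA-C replicates 3 and 4. Esrra was at 0.13, Ppargc1b at 0.12 (0.085 and -0.023 without that pair), Ppargc1a at 0.072, Tfam, the mitochondrial DNA packaging factor, at -0.038, and Nrf1 at -0.058. None of these partner genes passed the adjusted threshold, with a smallest adjusted p of 0.331.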

How the data were processed

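Whole kidneys of 4 HSRA-S and 4 HSRA-C rats were measured on 1 array each. The values deposited by the authors are RMA intensities on a linear scale (2.12 to 9259), per the submitters' processing notes; their software is not named there. This step equalises the arrays and compresses low values. The planned log2 scale was reached by taking log2 of the deposited intensity. Of 29214 probe sets, 18644 had exactly 1 symbol in the platform annotation; 4 with 2 carrier symbols were left out of the carriers. The dimmest 20% of genes (3449, mean below 3.63) were left out, leaving 13796. All 43 carrier gene IDs matched RefSeq (GRCr8), with 0 symbols changed.

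The groups were compared with limma 3.58.1 in R 4.3.3 (lmFit, eBayes without trend, group as the only term), with Benjamini-Hochberg adjustment over all tested genes at 0.05. Unadjusted p-values under 0.05 are counted as a description. Steps were tested on simulated data. Per-sample values are given for the up to 8 carriers of smallest p in each direction. Up to 4 partner genes of smallest p in each list are given by their difference. Further partner and marker genes named, and the promoters shown, were picked with their values in view. The members and lists were chosen with earlier results of these data known. The labels call samples biological replicates. Promoters came from RefSeq.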

Additional observations from a re-analysis of the deposited data

Results flagged for a closer look

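In groups of 4, a sample far from the other 3 (a gap to the nearest sample, as a share of the group's range, above Dixon's critical value) occurred in 4 of 84 carrier groups, where chance gives about 1 in 20 groups. HSRA-S replicate 3 was the low sample of Slc25a20, at 7.07 with the nearest at 7.39, and of Slc25a1, at 7.14 with the nearest at 7.19. HSRA-C replicate 3 was the low sample of Slc25a16, at 8.26 with the nearest at 8.31. HSRA-C replicate 2 was the high sample of Slc25a30, at 8.66 with the nearest at 8.32.

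Probe sets annotated to 2 carrier genes were not used above, because they cannot be given to 1 gene. Probe set 10876527 was higher in HSRA-S by 0.23 (SE 0.062; limma adjusted p = 0.383 over 21435 probe sets) and probe set 10776966 by 0.21 (SE 0.058; adjusted p = 0.383). Both probe sets were picked out here because every HSRA-S value lay above every HSRA-C value. Of all tested genes 4.12% were higher without overlap, and the share over probe sets was not taken. The lack of overlap of these probe sets was thus set by the rule. Both are annotated to Slc25a51 and Slc25a52, as is probe set 10776807, which was at 0.19 (SE 0.068), so the 3 are not independent. Another such probe set, 10810551, annotated to Slc25a36 and Slc25a36l1, was at -0.062.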

How the results depend on the processing

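No carrier passed the adjusted threshold with limma under any alternative run (0 in each), against 6 higher and 1 lower at an unadjusted p under 0.05. The 6 became 1 without HSRA-C replicates 3 and 4 and 3 with the tubule covariate, and ran from 2 (without HSRA-C replicate 4) to 8 (without HSRA-C replicate 2) when single samples were left out, with 3 without HSRA-C replicate 3. The 1 lower carrier became 2 with probe sets averaged per gene, with a pseudocount of 16, with arrays centred on their median and with the replicate block, and 0 with the covariate, and ran from 1 to 2 with single samples left out. Over all genes, 1 passed the adjusted threshold with the dimmest 50% left out, with the pseudocount and with an intensity trend, and 0 otherwise; no filter and no moderation changed no count beyond 1.5 times. The median carrier difference of 0.058 ran from 0.015 (without HSRA-C replicates 3 and 4) to 0.095 (dimmest 50% left out). None of the 7 carriers at an unadjusted p under 0.05 changed sign in any alternative that tested it (Slc25a2 is not among the 31 carriers left by the stricter filter), while of the 42 carriers 5 did without HSRA-C replicates 3 and 4, 4 with the covariate, 9 without HSRA-S replicate 1 and 6 without HSRA-C replicate 2. The replicate block gave 6 higher carriers, but the numbers do not pair the samples: deviations of same-numbered samples correlated at -0.068, 0.070, 0.13 and -0.11. Causes were not tested. With 4 arrays per group, small differences are uncertain, also in dim carriers, although the dim carriers did not have the largest SEs. SEs were largest for Slc25a25 (0.24) and Slc25a15 (0.19).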

Other observations

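Slc25a2 lies among the clustered protocadherins in RefSeq, with Pcdhb22 and Taf7 as its neighbouring coding genes. Neighbours were looked at after its values were seen. Of the 6 nearest tested genes on the protocadherin beta side, 5 were lower in HSRA-S and 1 was higher; of all tested genes 55.5% were higher, 2.17% were lower without overlap and 4.12% higher without overlap. Pcdhb16l was at -0.39 (SE 0.071) and Pcdhb19 at -0.21 (SE 0.073), both without overlap between the groups, Pcdhb17 was at -0.24, Pcdhb20 at -0.17 and Pcdhb21 at -0.061. Pcdhb22, next to Slc25a2, was at 0.20 without overlap. Of the 6 on the other side 3 were higher: Diaph1 was at 0.24 (SE 0.073) and Rell2 at 0.25 (SE 0.077), both without overlap, and Taf7 was at 0.046. Pcdhga4 was at -0.11, Fchsd1 at -0.097 and Hdac3 at -0.040. Protocadherin genes are close in sequence, and whether their probe sets share signal was not tested. None of these neighbours passed the adjusted threshold (smallest limma adjusted p = 0.313).

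Direct neighbours in RefSeq occur within the family, and no test was made of them. Slc25a43 was at 0.037 beside Slc25a5 at -0.018, Slc25a41 at 0.0089 beside Slc25a23 at 0.028, and Slc25a29 at 0.10 beside Slc25a47 at 0.053. Slc25a24, at -0.17, lies beside Slc25a54, which was left out as dim.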
